A study of Rattus norvegicus with 9 samples.

Results

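The comparison described here is that of injured rats given paeoniflorin and liquiritin (PLM) with injured rats given saline (SNI), after the shift shared by all genes had been taken out of each sample. Its members are 6 of the 9 RNA sequencing samples of the study, 3 PLM and 3 SNI, and the 3 sham-operated samples (JA) enter only as levels. All samples came from wild-type male Sprague Dawley rats, and the tissue was the ipsilateral L3-L6 spinal cord. JA rats had a sham operation and saline by mouth. SNI rats had spared nerve injury, in which the tibial and common peroneal branches of the sciatic nerve are tied and cut and the sural branch is left, and were given saline. PLM rats had the same injury and were given paeoniflorin at 20.65 mg/ml together with liquiritin. Liquiritin was at 3.98 mg/ml in the label of PLM replicate 1, the labels of replicates 2 and 3 read 3.99 and 3.100, and the study's methods give the group a single dose. Paeoniflorin is a monoterpene glycoside of peony root and liquiritin a flavonoid glycoside of liquorice root. The labels call the samples biological replicates and say nothing further of how the rats were housed or sampled.

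The spinal cord dorsal horn receives the input of the injured nerve, and astrocytes there take up glutamate and GABA from synapses, buffer potassium, carry water and supply neurons with fuel. After nerve injury astrocytes become reactive, and one of their signs is a higher level of Gfap, the intermediate filament protein of the cell type. Microglia, the resident immune cells of the cord, respond as well.

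The share of TPM (transcript abundance corrected for gene length, with the same total in every sample) that fell on 13 mitochondrially encoded genes had a mean of 24.6% in SNI (SD 1.30, n = 3), of 32.0% in PLM (SD 0.768) and of 29.1% in JA (SD 3.75). These genes were removed, TPM was rescaled without them, and log2(TPM + 1) was centred on the median of each sample. Of 34890 loci, 15461 averaged 1 TPM or more in SNI and PLM together and were tested. After centring, the median log2 fold change of all loci was 0.03, with 43.6% below 0 and 56.4% above, so the values below are differences against a centre near 0. Because 1 TPM is added before taking logs, the fold changes of weakly expressed genes come out too small. All TPM values given are the rescaled ones.

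At an adjusted p under 0.05 (limma, Benjamini-Hochberg), 97 loci were lower in PLM, 0.627% of those tested, and 17 were higher, 0.11%. The 97 lower loci had log2 fold changes from -3.16 to -0.44 with a median of -1.02, and 53 of them were below -1. The 17 higher loci lay between 0.35 and 1.05 with a median of 0.60, and 1 was above 1. By the thresholds of the study (unadjusted p under 0.05 and a log2 fold change below -1 or above 1) 123 loci were lower, 0.796%, and 71 higher, 0.459%. At the unadjusted p alone, 1075 were lower, 6.95%, and 1587 higher, 10.3%. No sample of PLM overlapped with SNI in any of the 97 and the 17 called loci. Over all loci that was so for 1563 in the lower direction, 10.1%, and for 2172 in the higher, 14%. The adjusted p-values from limma were bunched between 0.0271 and 0.05, so the calls lay close to the threshold. Without the variance trend of the model the count was 0 lower and 0 higher (limma; 1085 and 1458 at an unadjusted p under 0.05). Without SNI replicate 1 it was 0 lower and 0 higher (limma; 880 and 1126 at an unadjusted p under 0.05). Without SNI replicate 2 it was 5 and 2, without SNI replicate 3 it was 17 and 2, without PLM replicate 1 it was 67 and 13, without PLM replicate 2 it was 1 and 4, and without PLM replicate 3 it was 2 and 0. The log2 fold change of all 97 lower loci was below 0 and that of all 17 higher loci above 0 with any 1 of the 6 samples left out.

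**Figure D1:**
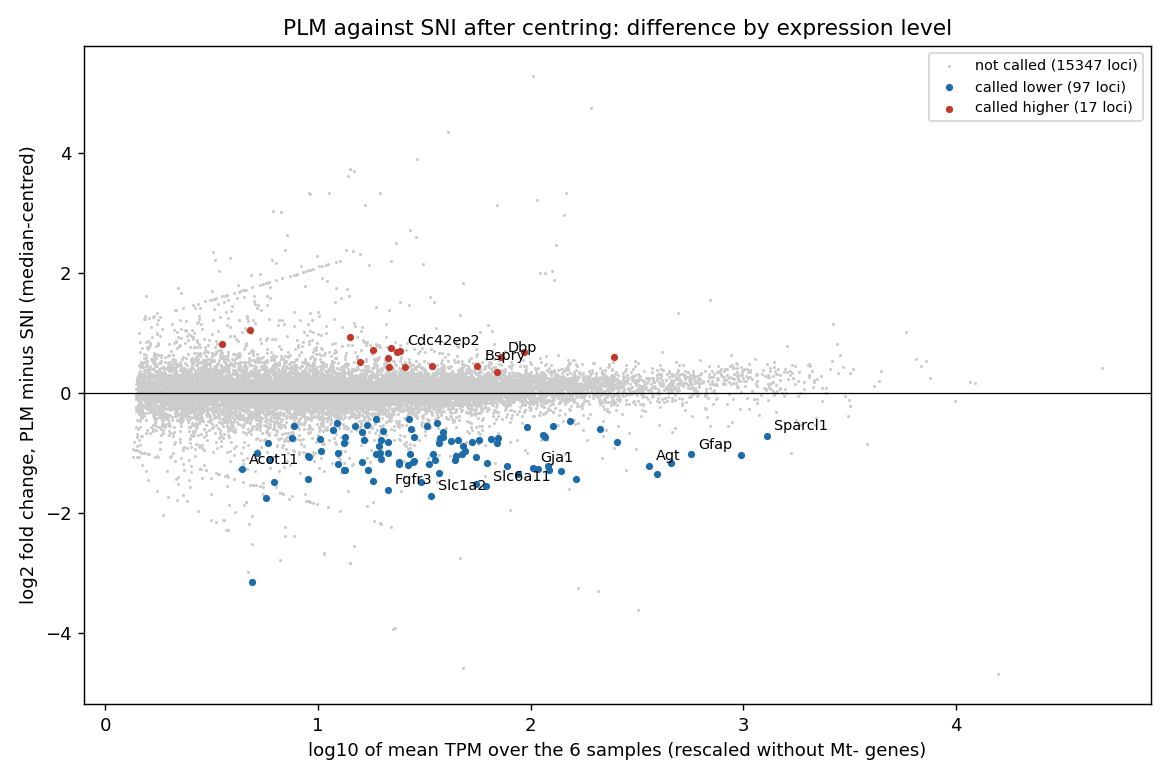
The x axis is log10 of the mean TPM over the 6 samples and the y axis the centred log2 fold change, PLM minus SNI, with 1 point for each of the 15461 loci tested. Blue points are the 97 loci called lower and red points the 17 called higher, and the lower loci include abundant astrocyte genes such as Gfap, Agt and Sparcl1.

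Of the 97 lower loci, 29 belonged to at least 1 of 46 gene lists, 13 of them to the astrocyte markers. None belonged to the markers of the other 9 cell types. With 0.627% of all loci called lower, lists this short often hold no called gene, so this absence is not a result about those cell types. Of the 20 astrocyte markers tested, 13 fell, beside 0.627% of all loci, and none rose, with a list median of -1.10 against 0.03 for all loci. In 19 of the 20 no PLM sample reached an SNI sample, which held for 10.1% of all loci. The summed TPM of the list was between 10058 and 11798 in SNI and between 6140 and 7217 in PLM. In JA it ran from 7549 to 11695, from between both ranges into that of SNI. The list was written with earlier results of these data known, so its count describes the samples and is not independent evidence. In bulk tissue, fewer astrocytes and less RNA per astrocyte cannot be told apart.

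Gfap was at 767, 835 and 739 TPM in SNI replicates 1 to 3 and at 385, 361 and 318 TPM in PLM replicates 1 to 3. The groups were well separated, and Gfap fell by 1.02 on the log2 scale (SE 0.11, adjusted p = 0.0271, limma). The marker Aldh1l1, a folate enzyme whose promoter is widely used to label astrocytes, was at 27.3, 26.7 and 24.1 TPM in SNI and at 13.3, 13.6 and 10.7 TPM in PLM, and fell by 0.89 (SE 0.12, adjusted p = 0.0423, limma). The receptor Fgfr3, found on astrocytes in the adult cord, was at 38.4, 37.8 and 23.5 TPM in SNI and at 11.1, 8.19 and 8.17 TPM in PLM, and fell by 1.61 (SE 0.22, adjusted p = 0.0415, limma). SNI replicate 3 was the lowest SNI sample for Gfap, Aldh1l1 and Fgfr3, and was still above each PLM sample. The 2 orphan or peptide receptors of the list, Gpr37l1 and Ntsr2, fell by 1.27 and 1.29. The other 7 markers did not pass the adjusted test. Slc7a10, which exchanges serine and glycine, had -1.49, the acyl-CoA synthetase Acsbg1 had -1.02, the water channel Aqp4 had -0.93, the glycolytic enzyme Aldoc had -0.53, the calcium-binding protein S100b had -0.39, glutamine synthetase Glul had -0.32 and the transcription factor Sox9 had -0.27. Of these 7, Sox9 had PLM samples within the SNI range, from 3.21 to 6.42 TPM against 4.85 to 7.92 TPM. Over the 20 markers the values ran from -1.72 for Slc1a2 to -0.27 for Sox9.

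**Figure D2:**
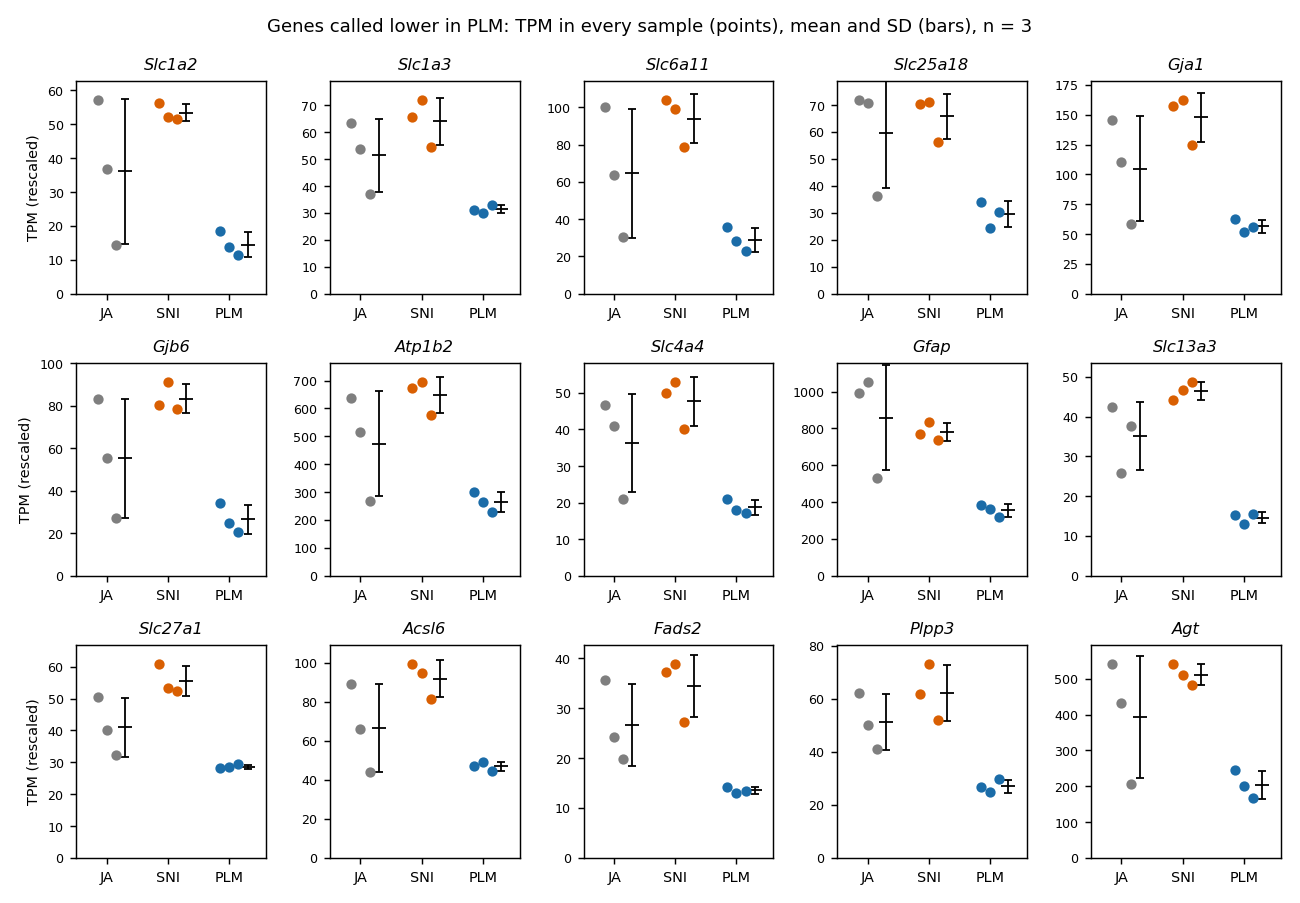
Each panel gives the TPM (y axis, from 0) of a gene called lower in every JA, SNI and PLM sample as points, with the mean and SD of the group (n = 3) beside them. The PLM points lie below all SNI points in each panel, and JA replicate 3, the rightmost grey point, lies nearer to PLM than the other JA points do in most panels.

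The transporters that clear transmitter from the synapse were among the genes with the largest differences. Slc1a2, the principal glutamate transporter of astrocytes, was at 56.3, 52.3 and 51.6 TPM in SNI and at 18.4, 13.9 and 11.3 TPM in PLM. It fell by 1.72 on the log2 scale (SE 0.19, adjusted p = 0.0271, limma). Slc1a3, the other glial glutamate transporter, was at 65.6, 72.0 and 54.6 TPM in SNI and at 31.2, 30.0 and 32.9 TPM in PLM, and fell by 0.88. The PLM samples of Slc1a3 differed by under 3 TPM among themselves, so most of the spread of this gene lay in SNI. Slc6a11, which takes up GABA into astrocytes, was at 104, 99.1 and 78.9 TPM in SNI and at 36.0, 28.1 and 23.2 TPM in PLM, and fell by 1.55 (SE 0.19, adjusted p = 0.0328, limma). Slc25a18, a mitochondrial glutamate carrier, fell by 1.02. Of the 14 members of the glial amino acid transport list 5 were called lower, these 4 among them, beside 0.627% of all loci. Slc1a2, Slc1a3 and Slc25a18 are astrocyte markers too, so the counts of both lists share them. None was called higher, and the list median was -0.56. Slc38a5 went the other way, at 0.39, with each PLM sample above each SNI sample and an unadjusted p of 0.0199 (limma). Glutamate dehydrogenase, Glud1, just missed the threshold, at 385, 382 and 332 TPM in SNI and 233, 201 and 201 TPM in PLM (log2 fold change -0.67, adjusted p = 0.0521, limma). Abat, which breaks down GABA, fell by 0.75, and is named here after its values were seen, as are the other lower genes below that the naming rule did not choose. Of the receptors for the same transmitters, 0 of 22 for glutamate and 0 of 15 GABA-A and glycine receptors were called (limma). At an unadjusted p under 0.05, 1 of the 22 and 6 of the 15 were lower, beside 6.95% of all loci, and in 2 and 7 no PLM sample reached an SNI sample, beside 10.1%. The list medians of these receptors were -0.09 and -0.18.

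Several single genes for the junctions, pumps and channels of astrocytes were called. Gja1, connexin 43 of the gap junctions, was at 157, 162 and 124 TPM in SNI and at 62.3, 51.3 and 56.0 TPM in PLM, and fell by 1.25 (SE 0.12, adjusted p = 0.0271, limma). Gjb6, connexin 30, was at 80.3, 91.2 and 78.4 TPM in SNI and at 34.2, 24.9 and 20.8 TPM in PLM, and fell by 1.52 (SE 0.20, adjusted p = 0.0369, limma). Both connexins of the astrocyte network were thus below their SNI levels in each PLM sample. Atp1b2, a sodium pump subunit typical of astrocytes, was among the more abundant genes of the comparison, at 675, 695 and 576 TPM in SNI and 302, 263 and 229 TPM in PLM, and fell by 1.18. Slc4a4, the sodium bicarbonate cotransporter, fell by 1.18, and Mlc1, a membrane protein of astrocyte endfeet, by 1.30. Kcnj16, a potassium channel subunit, was the only one of 34 potassium channels called, at 41.9, 43.7 and 34.3 TPM in SNI and 18.6, 15.8 and 14.3 TPM in PLM (log2 fold change -1.13, adjusted p = 0.0314, limma). Its partner Kcnj10, the main potassium channel of astrocytes, did not pass, at -0.42 on the log2 scale (adjusted p = 0.0713, limma). The median of the potassium channels was -0.07, and 1 of 34 called stands beside 0.627% of all loci called lower. At an unadjusted p under 0.05, 4 of the 34 were lower and 1 higher, beside 6.95% and 10.3% of all loci.

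Single genes of fuel transport and metabolism were called too. Slc13a3, a transporter of dicarboxylates such as succinate, had the smallest p of all loci. It was at 44.1, 46.7 and 48.7 TPM in SNI and at 15.3, 13.0 and 15.4 TPM in PLM, and fell by 1.49 (SE 0.09, adjusted p = 0.0271, limma). Of 33 genes of fatty acid activation and beta-oxidation, 2 fell and none rose, with a median of -0.19, beside 0.627% of all loci that fell. At an unadjusted p under 0.05, 13 of the 33 were lower, beside 6.95% of all loci. The called genes were Acss1, the mitochondrial acetyl-CoA synthetase, and Acsl6, a long-chain acyl-CoA synthetase. Acss1 was at 18.4, 17.5 and 17.5 TPM in SNI and at 8.50, 8.76 and 8.75 TPM in PLM, so that the spread within both groups was small beside the fall of 0.84. Acsl6 was at 99.2, 94.7 and 81.1 TPM in SNI and at 47.2, 49.1 and 44.5 TPM in PLM, and fell by 0.83. Slc27a1, which carries fatty acids into cells, was at 60.8, 53.2 and 52.5 TPM in SNI and at 28.2, 28.4 and 29.4 TPM in PLM, and fell by 0.81 (SE 0.07, adjusted p = 0.0271, limma). Fads2 and Elovl2, the desaturase and elongase that make long polyunsaturated fatty acids, fell by 1.15 and 1.29. Acot11, an acyl-CoA thioesterase, fell by 1.27, and Gpt2, the mitochondrial alanine aminotransferase, by 0.54. Glycolysis and glycogen genes had the same median, -0.19, with 13 of 30 lower at an unadjusted p under 0.05, beside 6.95% of all loci, and 0 called (limma). Pygm and Pygb, the muscle and brain forms of glycogen phosphorylase, had log2 fold changes of -0.95 and -0.67 (adjusted p = 0.0713 and 0.0633, limma).

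Of 81 glycerolipid and glycerophospholipid genes, 2 fell and none rose, beside 0.627% of all loci that fell, and the median was -0.07. At an unadjusted p under 0.05, 17 were lower and 4 higher, beside 6.95% and 10.3% of all loci. The called genes were Plpp3, a phosphatase of lysophosphatidic acid and related lipids, and Pla2g7, the phospholipase that breaks down platelet-activating factor. Plpp3 was at 62.0, 73.1 and 52.0 TPM in SNI and at 26.8, 24.8 and 29.7 TPM in PLM, and fell by 1.05 (SE 0.12, adjusted p = 0.0279, limma). Pla2g7 was at 174, 186 and 156 TPM in SNI and at 77.6, 63.0 and 62.6 TPM in PLM, and fell by 1.22. Among 39 sphingolipid genes Plpp3 fell and Degs2, a dihydroceramide desaturase, rose, and the median was 0.02. None of 23 cholesterol synthesis genes was called (limma), with 1 lower at an unadjusted p under 0.05, beside 6.95% of all loci. Cyp7b1, a hydroxylase of oxysterols and steroids, fell by 1.20, and Lcat, which esterifies cholesterol in lipoproteins, by 0.83. Another 3 lipid genes that the naming rule includes were not called. Etnppl, which breaks down phosphoethanolamine, was at 4.05, 4.56 and 3.74 TPM in SNI and at 1.82, 1.47 and 1.50 TPM in PLM (log2 fold change -0.86, adjusted p = 0.0665, limma). The acyltransferases Agpat4 and Lpcat4 had centred log2 fold changes of 0.14 and 0.04 (adjusted p = 0.329 and 0.863, limma), and both are below 0 on TPM as deposited, at -0.13 and -0.22.

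Of 102 calcium signaling genes, 2 fell and none rose, beside 0.627% of all loci that fell, and the median was -0.08. At an unadjusted p under 0.05, 16 were lower and 3 higher, beside 6.95% and 10.3% of all loci. Ednrb, the endothelin B receptor, was at 37.9, 44.1 and 30.7 TPM in SNI and at 16.6, 15.6 and 17.0 TPM in PLM, and fell by 1.02 (SE 0.12, adjusted p = 0.0299, limma). Itpkb, a kinase of inositol trisphosphate, fell by 0.66. Agt, the precursor of angiotensin peptides, which astrocytes make in the cord, is outside the list. It was at 541, 510.2 and 483 TPM in SNI and at 245, 199.9 and 167 TPM in PLM, and fell by 1.22 (SE 0.16, adjusted p = 0.0406, limma). The adenosine receptor Adora2b was at 8.15, 8.23 and 6.56 TPM in SNI and at 3.51, 2.21 and 3.05 TPM in PLM, without overlap and with an adjusted p of 0.0600 (limma). The substance P receptor Tacr1 was at 3.14, 1.66 and 1.87 TPM in SNI and at 0.506, 0.611 and 0.631 TPM in PLM (adjusted p = 0.152, limma). The histamine receptor Hrh1 was under the minimum of 1 TPM and was not tested.

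Signalling and matrix genes of the lower group came from several pathways, mostly with 1 member each. Lfng, which modifies Notch receptors, was at 34.1, 34.5 and 35.6 TPM in SNI and at 14.8, 12.5 and 13.0 TPM in PLM, and fell by 1.19 (SE 0.10, adjusted p = 0.0271, limma). It was the only one of 24 Notch pathway genes called, beside 0.627% of all loci called lower, and the list median was -0.08. At an unadjusted p under 0.05, 5 of the 24 were lower and 2 higher, beside 6.95% and 10.3% of all loci. In 8 each PLM sample was below each SNI sample and in 3 above, beside 10.1% and 14%. Among those not called, the Notch targets Hey2 and Heyl had log2 fold changes of -0.53 and -0.44 (adjusted p = 0.0518 and 0.0736, limma). Fgfr3 was the only one of 17 FGF receptor and feedback genes called, and Id2, a target of BMP signals, the only one of 18 BMP pathway and Id genes. Of all loci 0.627% were called lower. At an unadjusted p under 0.05, 7 of the 17 and 6 of the 18 were lower, beside 6.95% of all loci, and none was higher. Id2 was at 67.3, 70.3 and 48.9 TPM in SNI and at 28.7, 22.4 and 25.7 TPM in PLM. Of 17 proteoglycan genes 3 were called lower, beside 0.627% of all loci, and the list median was -0.15. The syndecans Sdc4 and Sdc3 and the perineuronal net component Bcan fell by 1.15, 0.77 and 1.36. At an unadjusted p under 0.05, 5 of the 17 were lower and 1, Hapln2 at 0.21, higher, beside 6.95% and 10.3% of all loci. Sparcl1, a synapse-organizing protein secreted by astrocytes and the most abundant of the genes called lower, was at 1792, 1677 and 1504 TPM in SNI and at 962, 939 and 888 TPM in PLM, and fell by 0.71. The antioxidant enzymes Sod3 and Prdx6 fell by 1.02 and 0.81, and D-amino acid oxidase, Dao, which degrades D-serine, by 1.29. Chi3l1, a secreted glycoprotein known as a sign of reactive astrocytes, fell by 1.08. The remaining genes chosen by their p were Igsf1, Fam181b, Nwd1, Fam20a and Pamr1, with log2 fold changes from -1.49 to -1.01. The most negative value, -3.16, belonged to an assembled locus without a gene name that is listed at 0 in all 3 PLM samples, so no fold is given for it.

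The promoters of the lower genes were searched for 4 short motifs on both strands, in windows from 250 bases before to 50 after the transcription start (RefSeq, build GRCr8). A single window was matched for 63 of the 97 lower loci and for 9304 of all symbols tested. The motif GTGGGAA, the core bound by RBPJ, the DNA-binding factor of the Notch pathway, was found in 10 of the 63, 15.9%, and in 580 of the 9304, 6.23%. Among the genes called higher, 7 had a window and 2 of these held the motif, 28.6%. The NFI motif TTGGCA was found in 12.7% and 10.8%, the STAT motif TTCNNNGAA in 6.35% and 6.27%, and the SOX9 motif ACAATGG in 1.59% and 1.88%. No one of these motifs contains another. In 9 of the 10 lower genes the GTGGGAA match lay before the start, with 10 matches in all, 6 as written and 4 as the reverse complement. They are shown because Lfng, Slc27a1 and Acsl6 are among them, and the choice of this motif for printing was made after the shares were seen. The stretches below read 5′ to 3′ on the strand of the gene, with the match in capitals.
Lfng, chr12:19153019-19153059, minus strand: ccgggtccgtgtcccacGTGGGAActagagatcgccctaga
Slc27a1, chr16:18312872-18312912, plus strand: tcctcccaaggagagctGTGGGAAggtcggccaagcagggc
Lrig1, chr4:128788430-128788469, minus strand: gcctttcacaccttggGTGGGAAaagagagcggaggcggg
Eva1a, chr4:116151424-116151464, plus strand: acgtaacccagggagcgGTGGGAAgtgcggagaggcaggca
Acsl6, chr10:38952048-38952088, plus strand: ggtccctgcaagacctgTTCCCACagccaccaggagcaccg
Sfxn5, chr4:119427391-119427431, minus strand: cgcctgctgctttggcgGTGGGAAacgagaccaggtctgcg
Atp1b2, chr10:54823930-54823958, minus strand: ttcttTTCCCACcttgtttcagtaccgta
Atp1b2, chr10:54823772-54823812, minus strand: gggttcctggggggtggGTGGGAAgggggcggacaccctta
Pnp, chr15:26643911-26643951, plus strand: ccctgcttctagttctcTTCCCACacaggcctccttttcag
Fam151a, chr5:126743556-126743596, plus strand: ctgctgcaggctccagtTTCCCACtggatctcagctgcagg
The match of Lfng begins 124 bases before the start, that of Slc27a1 78 and that of Acsl6 96. A match in these letters is a description of the sequence, and binding was not measured.

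Genes called higher were fewer and had smaller fold changes. Of the 17 loci, 3 were in a gene list. Tie1, an endothelial receptor tyrosine kinase, was at 19.5, 16.9 and 16.9 TPM in SNI and at 23.6, 25.0 and 25.6 TPM in PLM, and rose by 0.57 (SE 0.07, adjusted p = 0.0345, limma). Dbp, a transcription factor driven by the circadian clock, was at 65.0, 57.6 and 57.9 TPM in SNI and at 87.3, 81.4 and 83.7 TPM in PLM, and rose by 0.60 (SE 0.08, adjusted p = 0.0365, limma). Degs2 was at 13.0, 13.5 and 13.6 TPM in SNI and at 16.8, 17.4 and 20.0 TPM in PLM, and rose by 0.52. The spread of Degs2 was wider in PLM than in SNI, and the groups did not overlap. The named genes outside the lists were Cdc42ep2, a Cdc42 effector, with 0.71, Bex4 with 0.67, Bspry with 0.46, Jcad, a protein of endothelial junctions, with 0.45, Rgs4, a regulator of G protein signals, with 0.43, and Shtn1, which acts in axon outgrowth, with 0.43. Cdc42ep2 was at 18.9, 20.9 and 17.6 TPM in SNI and at 28.6, 30.2 and 28.8 TPM in PLM. The sizes of these differences rest on the centring. On TPM as deposited 10 of the 17 loci were still called (limma), Cdc42ep2, Bex4 and Dbp with 0.44, 0.41 and 0.33 among them. Tie1 and Degs2 then had 0.31 and 0.26 and were not called, nor were Bspry, Jcad, Rgs4 and Shtn1, with 0.19, 0.18, 0.16 and 0.17. A locus named after a microRNA was called too and is not described, since its identifier could not be matched to a miRNA. Genes past the thresholds of the study but not called included Slc44a5, a choline transporter-like protein, at 3.08, 6.81 and 6.97 TPM in SNI and at 15.7, 17.7 and 22.8 TPM in PLM (adjusted p = 0.0633, limma). The leukocyte surface antigen Cd52 was at 1.99, 2.31 and 1.11 TPM in SNI and at 5.55, 5.25 and 4.49 TPM in PLM (adjusted p = 0.0585, limma). For Ager, the receptor for glycation end products, the log2 fold change was 1.21, and for the nucleoporin-like Nupl2 it was 1.03.

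**Figure D3:**
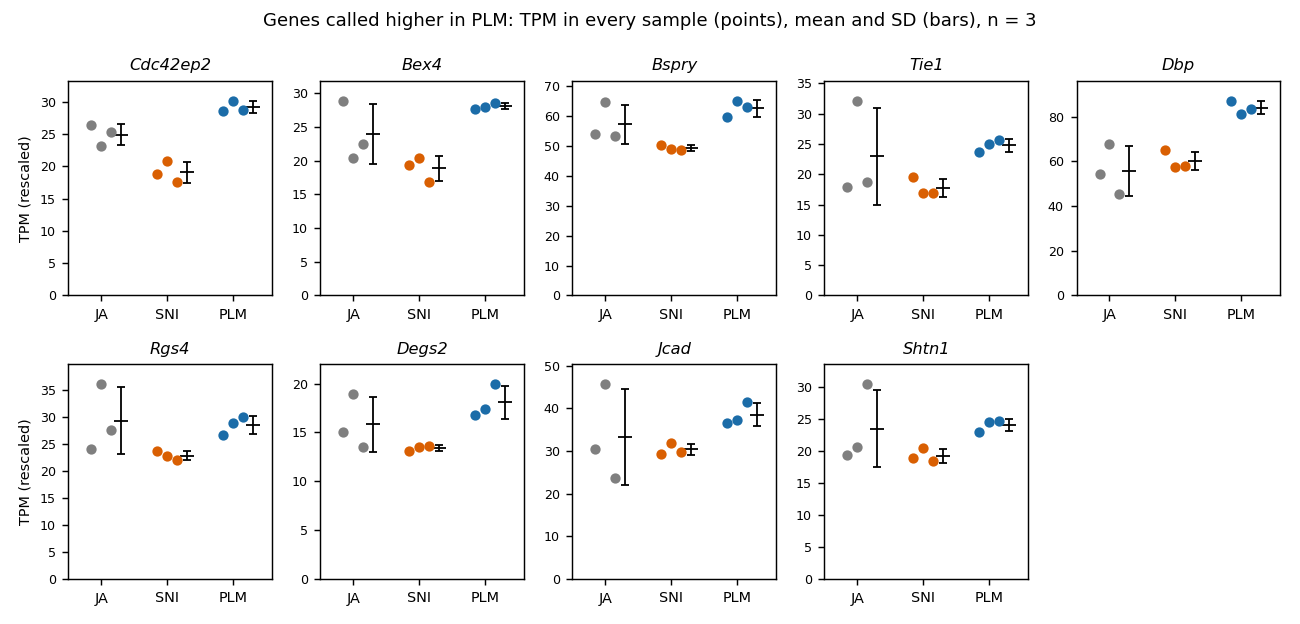
Each panel gives the TPM (y axis, from 0) of a gene called higher in every JA, SNI and PLM sample as points, with the mean and SD of the group (n = 3) beside them. PLM lies above SNI in each panel without overlap, and the highest JA sample exceeds all PLM samples for Bex4, Tie1, Rgs4, Jcad and Shtn1.

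Among the 20 circadian clock genes tested, Dbp was the only one called, beside 0.11% of all loci called higher. At an unadjusted p under 0.05, 3 were lower and 4 higher (6.95% and 10.3% of all loci), and the list median was -0.11. Nr1d2 and Nr1d1, the REV-ERB repressors, had log2 fold changes of 0.54 and 0.44 (adjusted p = 0.0633 and 0.151, limma). Arntl and Npas2, activators of the clock, had -0.57 and -0.77 (adjusted p = 0.0713 and 0.0714, limma). In these 4 genes no PLM sample overlapped with SNI. Arntl was at 14.7, 14.8 and 12.1 TPM in SNI, 7.63, 9.11 and 7.95 TPM in PLM and 15.2, 13.9 and 12.5 TPM in JA, so that JA lay with SNI. The period genes Per1 and Per2 had -0.13 and 0.26. The hour at which each rat was killed was not given in the sources used here.

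The markers of the other cell types were not called, apart from Tie1. Of all loci 0.627% were called lower and 0.11% higher, and at these shares short lists often hold no called gene. The 18 neuron markers had a median of 0.02 (-0.24 on TPM as deposited), and 1 was higher at an unadjusted p under 0.05, as were 10.3% of all loci. The 12 oligodendrocyte markers had a median of 0.16 (-0.11 on TPM as deposited) with 6 higher, and the 12 microglia markers 0.33 (0.06 on TPM as deposited) with 8 higher, at the same unadjusted threshold and beside the same 10.3%. Aif1, which encodes IBA-1, was at 83.4, 83.2 and 79.3 TPM in SNI and at 113, 90.8 and 108 TPM in PLM, which did not pass (log2 fold change 0.45, and 0.18 on TPM as deposited; adjusted p = 0.107, limma). In JA it was at 81.0, 134 and 122 TPM, a range wider than the difference of SNI and PLM. The endothelial and pericyte markers had a median of 0.35 (0.09 on TPM as deposited) with 5 of 11 higher at an unadjusted p under 0.05, again beside 10.3%, among them Cldn5, a tight junction protein, at 262, 297 and 273 TPM in SNI and 326, 381 and 383 TPM in PLM (adjusted p = 0.0518, limma). Blood cell markers had a median of 1.02 (0.76 on TPM as deposited), with 5 of 7 genes higher at an unadjusted p under 0.05 and none called (limma). In 5 of the 7 the lowest PLM value exceeded the highest SNI value, as in 14% of all loci. The hemoglobin gene Hba-a2 was at 1800.4, 2166 and 1247 TPM in SNI and at 3887, 2644 and 4026 TPM in PLM (adjusted p = 0.0973, limma), and JA replicate 3 was at 3752 TPM. Its part in the other results was not tested. Schwann cell markers had a median of -0.42 and overlapped in all 8 genes. Their summed TPM ran from 769 to 6121 in SNI and from 418 to 4886 in PLM, so the samples of each group differed widely among themselves. The meningeal and fibroblast markers had a median of -0.33 and the ependymal ones 0.14.

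**Figure D4:**
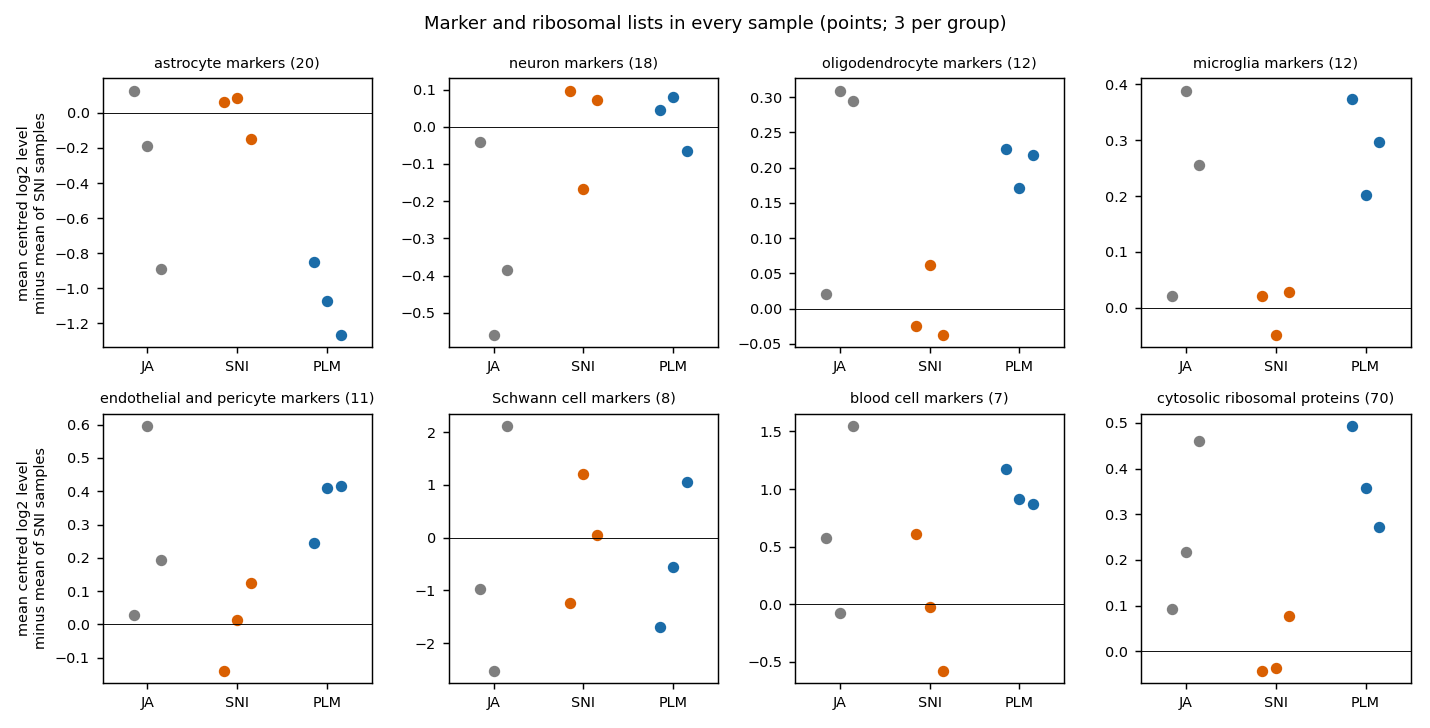
Each panel gives the mean centred log2 level of a list in every sample (points, 3 per group), minus the mean of the SNI samples (y axis, log2 units), with the number of genes in parentheses. The astrocyte markers of PLM lie far below SNI while the neuron markers overlap, and JA replicate 3 lies with PLM for the astrocyte markers.

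No gene of the ribosomal protein, respiratory chain, proteasome, spliceosome and heat shock lists was called (limma). Of 70 cytosolic ribosomal protein genes, 58 were higher at an unadjusted p under 0.05, beside 10.3% of all loci, and the median was 0.33. On TPM as deposited the median was 0.06, so the size of this difference rests on the centring. Nuclear-encoded respiratory chain genes had a median of 0.18 with 16 of 75 higher at an unadjusted p under 0.05, and proteasome genes 0.17 with 13 of 32, both beside the same 10.3%. The medians of these last 2 lists, and those of the ependymal, sphingolipid and spliceosome genes, are below 0 on TPM as deposited, where the median of all loci was -0.21. Spliceosome core genes had 0.12, and heat shock and chaperone genes had 1 lower and 1 higher of 31 at the unadjusted threshold. No called member was found in 22 of the 36 process lists, beside 0.627% of all loci called lower and 0.11% higher. Among these 22 were the complement, interferon, cytokine and immediate early gene lists. At the unadjusted threshold 3 of 19, 4 of 24, 4 of 26 and 3 of 20 of their genes were lower, beside 6.95% of all loci. Higher were 2 complement genes and none of the others, beside 10.3%.

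**Figure D5:**
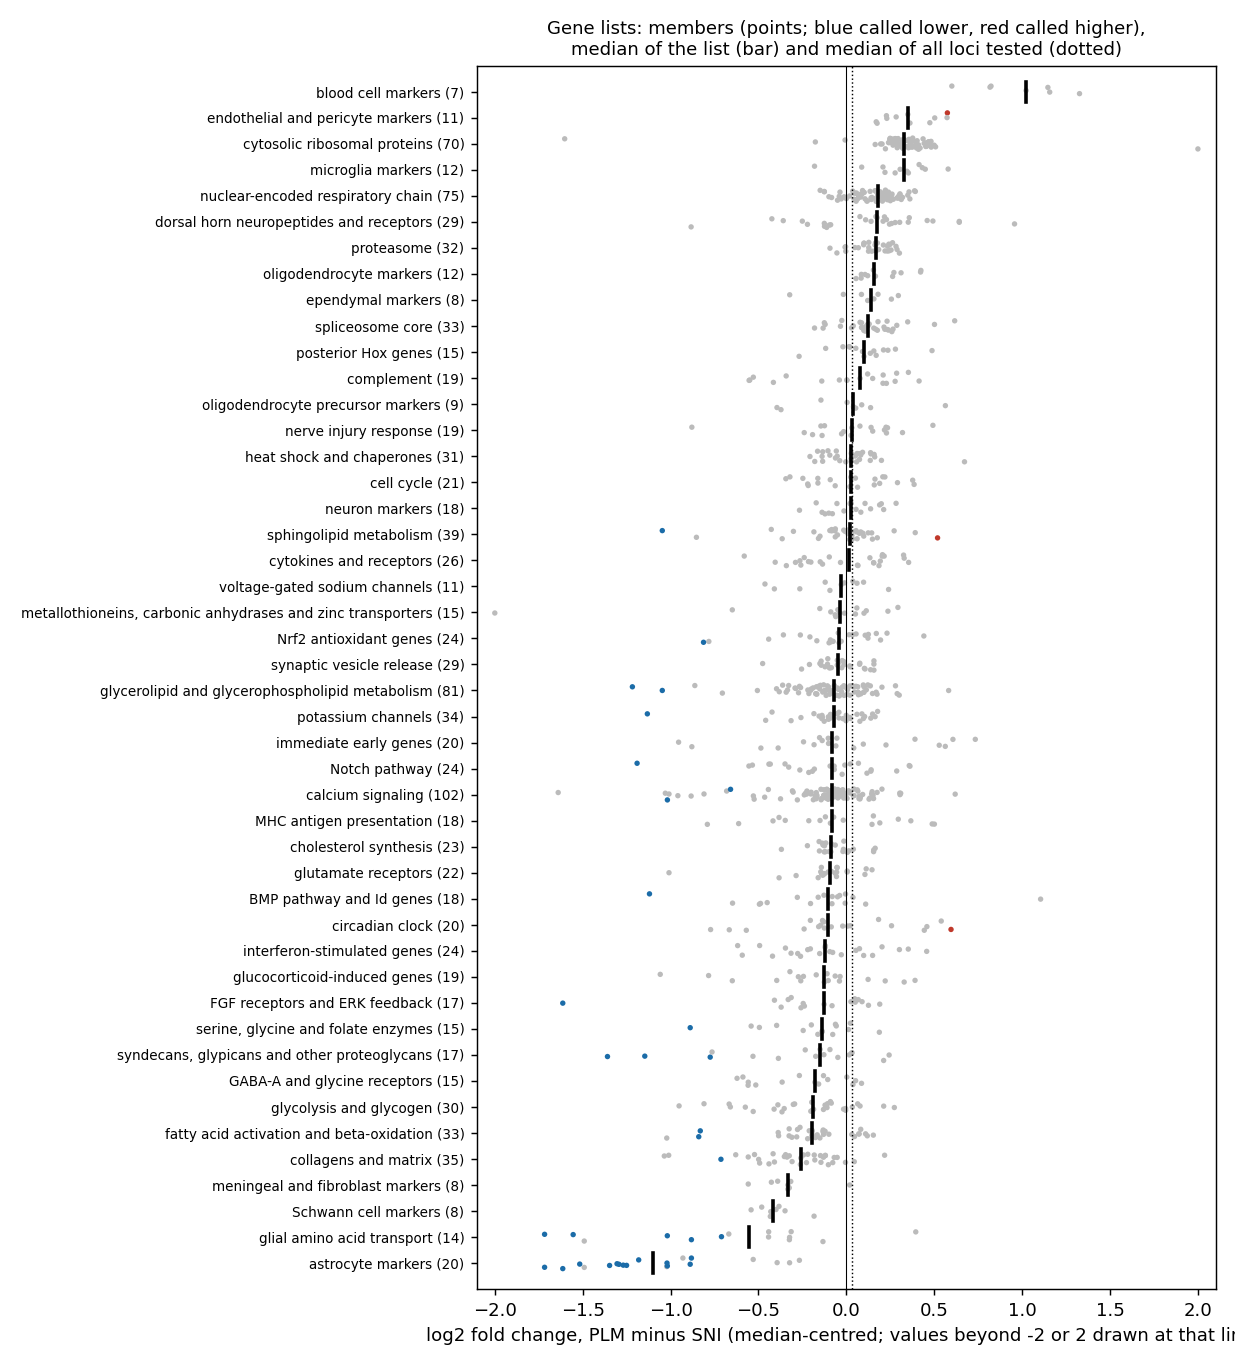
Each row is a gene list (number of genes tested in parentheses), each point the centred log2 fold change of a gene, PLM minus SNI (x axis), the bar the list median and the dotted line the median of all loci, 0.03. Blue points were called lower and red points higher. The astrocyte list at the bottom, median -1.10, and the blood cell list at the top, median 1.02, lie farthest from the dotted line.

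The levels of the called genes in the sham rats differed between the JA samples. For the 97 lower loci, the centred level of JA replicate 1 was within or above the SNI range in 82 and within or below the PLM range in 0. In JA replicate 3 the corresponding numbers were 2 and 41, and the other 54 lay between both groups. JA replicate 2 was within or above the SNI range in 26, between the groups in 70 and within or below the PLM range in 1. Against the SNI mean, the median difference over the 97 loci was 0.02 in JA replicate 1, -0.23 in replicate 2 and -0.72 in replicate 3 (log2). Slc1a2 was at 57.2, 36.7 and 14.5 TPM in JA replicates 1 to 3, and Gja1 at 146, 110.2 and 58.5 TPM. The lowest of these values were in the range of PLM, although JA replicate 3 had neither the injury nor the drugs. Gfap did not follow SNI in the sham rats, being at 992, 1052 and 529.5 TPM in JA replicates 1 to 3, higher than each SNI sample in replicates 1 and 2. JA replicate 3 also had the highest mean of the Schwann cell markers of all samples. Differences of this size between rats of 1 group were therefore present among the sham samples. In the fit with all 9 samples, in which the spread of the JA samples counts too, 0 loci were called in either direction (limma; 914 lower and 1339 higher at an unadjusted p under 0.05). For the 17 higher loci, JA replicate 1 was within or above the PLM range in 1, replicate 2 in 6 and replicate 3 in 3.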

How the data were processed

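Libraries were made from total RNA of 9 spinal cord samples with an Illumina TruSeq kit. According to the study's methods and the submitters' processing notes, the authors cleaned reads with fastp 0.19.5, mapped them with HISAT2 and computed expression with StringTie. The build named in the notes is a human one, GRCh38.p13, while the identifiers are rat, so the build is not given in the sources used here. The authors deposited 1 table of TPM values, in which each sample sums to 1000000. TPM keeps no read depth, so depth and counting error are unknown, and count tests were not used.

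Loci averaging 1 TPM or more over the 6 SNI and PLM samples were kept, rows whose names begin with Mt- were removed, TPM was rescaled, and log2(TPM + 1) was centred on each sample's median. PLM was compared with SNI with limma 3.58.1 in R 4.3.3 (moderated test with a variance trend, two-sided, no covariate), with Benjamini-Hochberg adjustment over all loci tested. Of each direction, the 15 genes with a symbol and the smallest p among those called without overlap were named, filled up by the study's thresholds, with up to 4 called genes of each list and genes fixed by name from the study. The lists and the groups compared were chosen with earlier results of these data known. Of a symbol with several loci, the most abundant stands in a list. P-values measure only the spread between these samples. The replicate numbers do not pair the samples. A few genes are not reported here. Alternatives were other scalings, a pseudocount of 0.1, no filter, a minimum mean of 5 TPM, no variance trend, a fit of all 9 samples, a block for the replicate number, and each sample left out in turn.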

Additional observations from a re-analysis of the deposited data

How the results depend on the processing

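The counts of called loci moved with the filter, the variance model, the samples used and whether values were centred. The direction of the called loci did not change. The way of centring and the pseudocount changed the lower calls less. On TPM as deposited and then centred, 96 of the 97 lower and 16 of the 17 higher loci stayed called (limma). With median ratio scaling 97 and 13 did, with quantile normalization 97 and 15, and with a pseudocount of 0.1 97 and 17. On TPM as deposited 2113 loci were lower and 30 higher (limma), and by the study's thresholds 220 and 35. The median of all loci was then -0.21. Rescaled and not centred, 270 were lower. Without a filter the counts were 46 and 7, and with a minimum mean of 5 TPM they were 154 and 39, with 31 higher by the study's thresholds. Without the variance trend 0 and 0 were called (1085 and 1458 at an unadjusted p under 0.05), and with all 9 samples 0 and 0 (914 and 1339). With the replicate block 0 and 0 were called (835 and 1084), and same-numbered SNI and PLM samples had correlations of their deviations of 0.03, -0.02 and -0.0004. With 1 sample left out, the lower count ran from 0 to 67 and the higher from 0 to 13. The smallest adjusted p was 0.0506 without the trend, 0.0534 with all 9 samples and 0.0942 with the replicate block. Of the 97 lower and 17 higher loci, 0 and 0 stayed called under all 17 alternatives, but each one tested kept its sign in all of them (the minimum of 5 TPM tested 90 and 15). Agpat4 was at -0.13 and Lpcat4 at -0.22 on TPM as deposited, and Lpcat4 at -0.078 uncentred and from -0.054 to 0.092 with 1 sample left out, the lowest without SNI replicate 2. The cause of these changes was not tested. Depth is unknown in TPM, so counting error of the low genes is not included.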
